A study of Homo sapiens with 14 samples.

Results

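The genes described here are 8 that were nearly off or far below control when CFIm25 was overexpressed: CD99, PNMA8A, VEGFC, PCDH20, SERPINB9, GSTP1, STAT6 and IFI16. They were chosen by level, with a mean of at least 5 CPM (the count divided by the scaled library total) in the control libraries and at most 10% of that mean in CFIm25 overexpression. All 8 members were found in the count table of 18006 genes by Ensembl identifier. They are every gene that meets both limits, 8 of 9290 with a control mean of at least 5 CPM, or 0.0861%. Not all were off: GSTP1 kept a mean of 7.56 CPM and STAT6 3.22 CPM in CFIm25 overexpression.

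The 14 libraries hold mRNA from HEK 293, an established line of human embryonic kidney origin. Controls are labelled wild type (n = 3). The other groups are CFIm25 knockdown (n = 2), CFIm25 overexpression (n = 3), CFIm68 knockdown (n = 3) and CFIm68 overexpression (n = 3), where knockdown was by siRNA and the labels give Lipofectamine RNAimax for every sample. The sources used here do not say what siRNA or vector the controls carried, whether overexpressing cells were transient, pooled or 1 clone, or when cells were harvested. Libraries held 15822467 to 33895308 counts. The targeted transcripts moved as labelled: NUDT21, which encodes CFIm25, stood at 514 ± 19.6 CPM in control, 53.8 ± 1.2 in its knockdown and 729 ± 55.6 in its overexpression, and CPSF6, which encodes CFIm68, at 268 ± 5.78, 41.6 ± 0.996 and 730 ± 17.4 CPM (mean ± SD). Each knockdown was also accompanied by a different level of the other subunit: NUDT21 was lower than control in CFIm68 knockdown, at 232 ± 9.27 CPM, and CPSF6 was higher in CFIm25 knockdown, at 533 ± 10.2 CPM. The labels do not say that replicates were grown separately, so the tests measure the spread between libraries only, which may be technical.

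CFIm25 and CFIm68 are subunits of cleavage factor Im, which binds UGUA motifs in nascent transcripts and steers which polyadenylation site is used. The 8 genes share no single pathway. CD99 and PCDH20 encode proteins of the cell surface: CD99 is a glycoprotein of adhesion and leukocyte migration, encoded in the pseudoautosomal region of the X and Y chromosomes, and PCDH20 is a protocadherin. VEGFC is a secreted growth factor for lymphatic vessels that signals through the receptor FLT4. STAT6 is the transcription factor activated by interleukin 4 and interleukin 13, and IFI16 is an interferon-inducible nuclear protein that binds foreign DNA. GSTP1 conjugates glutathione to electrophiles, SERPINB9 inhibits granzyme B inside cells, and PNMA8A belongs to the paraneoplastic Ma antigen family. In bulk RNA, fewer cells with a transcript and less of it per cell cannot be told apart.

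The genes lie on 8 different chromosomes, and their promoters were compared because they were all low in the same libraries. RefSeq windows of 300 bases (GRCh38.p14, 250 before and 50 after the annotated start) were matched for 7 of them. PCDH20 had no entry. CG dinucleotides are in capitals in the 5 windows shown, which hold the range from rich to poor. They are CD99 (chrX:2691045-2691344, plus strand), PNMA8A (chr19:46471514-46471813, minus strand), GSTP1 (chr11:67583562-67583861, plus strand), STAT6 (chr12:57110240-57110539, minus strand) and the second of 2 IFI16 windows (chr1:159009657-159009956, plus strand).
CD99: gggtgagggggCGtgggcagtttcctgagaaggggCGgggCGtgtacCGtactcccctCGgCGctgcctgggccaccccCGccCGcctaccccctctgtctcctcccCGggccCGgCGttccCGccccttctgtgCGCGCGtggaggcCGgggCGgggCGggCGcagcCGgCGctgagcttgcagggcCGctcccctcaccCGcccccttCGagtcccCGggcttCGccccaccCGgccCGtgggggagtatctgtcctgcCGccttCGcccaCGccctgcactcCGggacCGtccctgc
PNMA8A: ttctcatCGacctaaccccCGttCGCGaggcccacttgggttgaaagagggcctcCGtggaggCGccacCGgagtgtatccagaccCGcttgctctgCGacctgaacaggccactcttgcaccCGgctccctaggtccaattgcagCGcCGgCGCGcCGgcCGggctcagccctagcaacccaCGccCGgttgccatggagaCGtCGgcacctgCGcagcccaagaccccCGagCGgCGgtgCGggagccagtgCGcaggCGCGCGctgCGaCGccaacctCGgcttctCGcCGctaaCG
GSTP1: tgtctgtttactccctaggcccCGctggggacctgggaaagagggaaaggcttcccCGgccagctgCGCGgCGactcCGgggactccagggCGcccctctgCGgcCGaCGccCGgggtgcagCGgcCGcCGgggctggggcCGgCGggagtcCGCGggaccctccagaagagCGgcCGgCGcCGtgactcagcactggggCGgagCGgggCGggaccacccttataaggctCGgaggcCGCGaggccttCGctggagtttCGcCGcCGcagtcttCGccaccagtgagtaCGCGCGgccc
STAT6: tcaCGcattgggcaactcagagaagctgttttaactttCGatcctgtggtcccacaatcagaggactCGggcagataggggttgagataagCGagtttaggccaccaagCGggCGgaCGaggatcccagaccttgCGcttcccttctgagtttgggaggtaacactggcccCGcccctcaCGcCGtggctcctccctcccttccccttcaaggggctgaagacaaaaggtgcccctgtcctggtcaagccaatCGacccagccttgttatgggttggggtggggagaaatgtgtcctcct
IFI16: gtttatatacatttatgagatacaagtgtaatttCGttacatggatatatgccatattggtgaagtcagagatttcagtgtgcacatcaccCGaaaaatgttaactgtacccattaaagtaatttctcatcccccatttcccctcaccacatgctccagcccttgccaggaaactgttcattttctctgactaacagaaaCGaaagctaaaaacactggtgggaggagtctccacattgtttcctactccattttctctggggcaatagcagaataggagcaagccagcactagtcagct

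Of these, the GSTP1 window held 36 CG dinucleotides, the PNMA8A window 35 and the CD99 window 33, with an identical CD99 window on Y. SERPINB9 had 35 and VEGFC 32. The STAT6 window held 12, and the IFI16 windows held 1 and 3. These CG-poor windows are built on starts inside the gene, 21.9 kb (STAT6) and 9.02 and 9.94 kb (IFI16) from the outermost GENCODE start, whereas the starts of the other 5 genes lie within 217 bases of it. Over 20016 windows of genes in the count table the median was 22, and 54.6% of windows had at least 20. The 5 rich windows had more CG than 74.7% to 83% of those windows, STAT6 more than 31.5%, and IFI16 more than 1.72% and 9.23%. The GC box GGGCGG, searched on both strands, was in the windows of CD99 (6 times), GSTP1, SERPINB9, VEGFC and STAT6 (2 each) and in 57.8% of the background windows. TATAAA was in those of SERPINB9 and 1 IFI16 window (8.51% of the background), and CCAAT in those of PNMA8A, SERPINB9, STAT6 and 1 IFI16 window (34.5%). CG was in all 7 genes' windows and in 98.3% of the background windows, and none of the other motifs searched was in all 7. DNA methylation was not measured here.

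In CFIm25 overexpression the genes formed a group of 5 at or near 0 and a group of 3 with a measurable residue. These values chose the genes and are a description, with no test. CD99 had 915, 1074 and 1100 counts in the 3 control libraries and 1, 3 and 3 in CFIm25 overexpression. PNMA8A had 222, 224 and 170 against 1, 2 and 1. VEGFC had 149, 134 and 137 against 0, 2 and 1. In every control library each of these transcripts was counted over 100 times, and in no CFIm25 overexpression library over 3 times. A count of 0 allows up to 3 counts, which in that library is 0.129 CPM, and such limits and the intervals below cover counting error only.

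PCDH20 and SERPINB9 had at most 8 counts in any CFIm25 overexpression library. The protocadherin had 421, 381 and 374 counts in control and 7, 8 and 3 in CFIm25 overexpression. The granzyme B inhibitor had 174, 137 and 139 against 6, 1 and 1. As a share of the control mean, CPM stood at 0.225% ± 0.13 for CD99, 0.625% ± 0.324 for PNMA8A, 0.732% ± 0.726 for VEGFC, 1.42% ± 0.64 for PCDH20 and 1.48% ± 1.38 for SERPINB9 (SD, n = 3). The SERPINB9 residue was mostly 1 library: without CFIm25 overexpression replicate 1 it was 0.685%. VEGFC, with 3 counts in all, was at 0.372% without replicate 2 and 1.10% without replicate 1. From pooled counts, with exact Clopper-Pearson 95% intervals, CD99 was 476-fold lower than control (231 to 1186), PNMA8A 166-fold (64.6 to 612) and VEGFC 151-fold (51.3 to 736).

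GSTP1, STAT6 and IFI16 kept a residue that was even across libraries. GSTP1, the most abundant of the 8, had 2177, 2194 and 2444 counts in control and 166, 140 and 132 in CFIm25 overexpression, or 5.99% ± 0.322 of the control CPM. STAT6 had 729, 769 and 821 against 80, 57 and 52, or 7.5% ± 0.486. IFI16 had 210, 255 and 227 against 27, 18 and 17, or 8.23% ± 0.716. Each of the 3 shares was at least 4 times that of PCDH20 and SERPINB9.

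**Figure D1:**
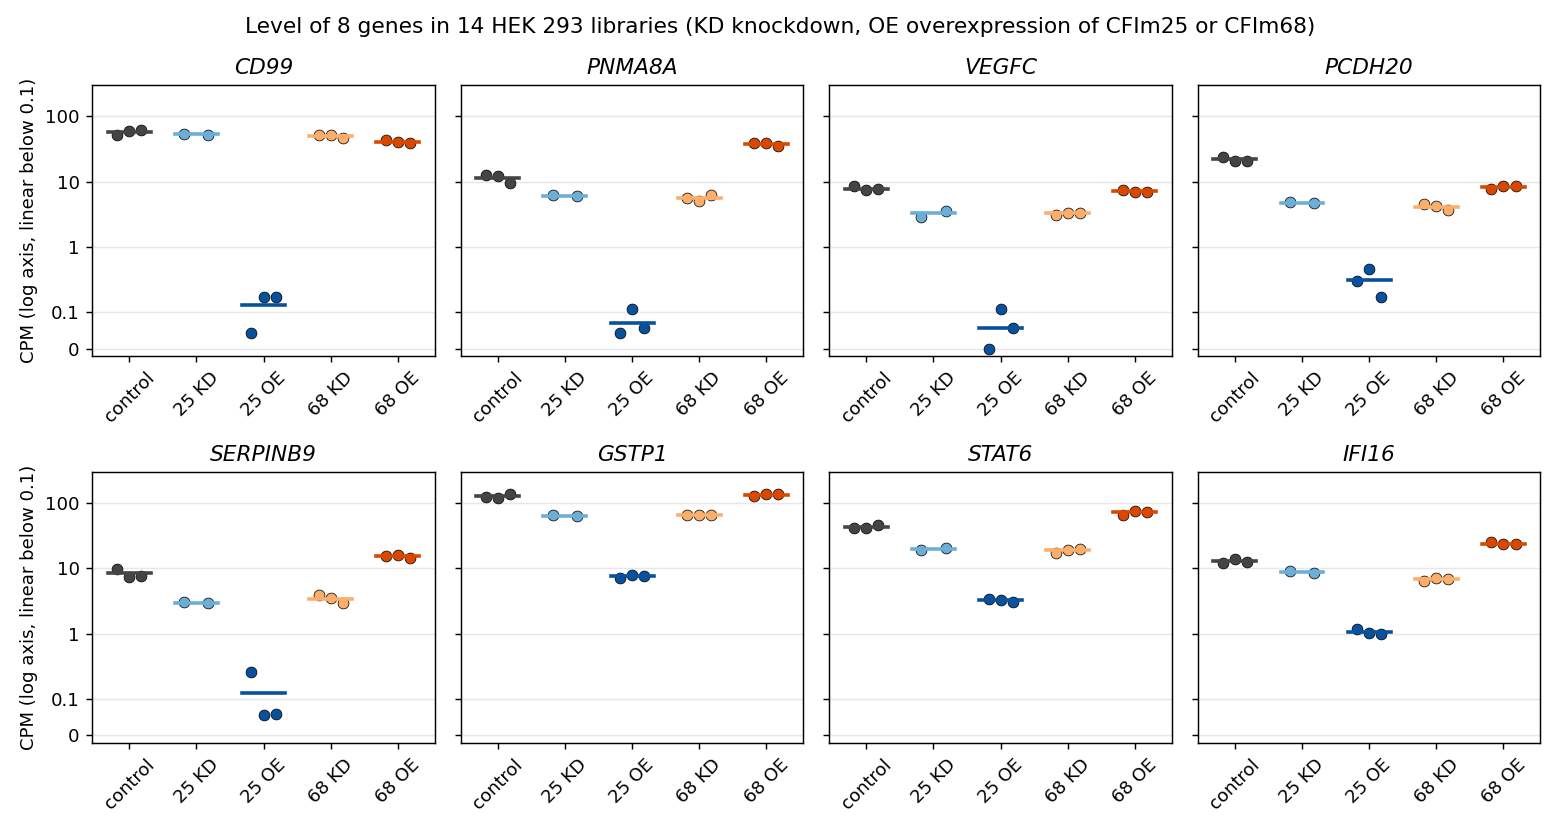
CPM of the 8 genes in each of the 14 libraries, on a log axis that is linear below 0.1, with points for libraries and bars for group means. In CFIm25 overexpression CD99, PNMA8A, VEGFC, PCDH20 and SERPINB9 lie below 0.5 CPM, while GSTP1, STAT6 and IFI16 keep means of 7.56, 3.22 and 1.05 CPM.

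The genes nearest to the limit lie close to IFI16. Just inside 10% were IFI16 (8.23%) and STAT6 (7.5%). Just outside were CXXC4 at 11.0%, RGL3 at 11.6%, SDR42E1 at 12.2%, TMEM200B at 12.4% and CYP27A1 at 13.9% of control. CXXC4 had 168, 184 and 162 counts in control and 13, 21 and 24 in CFIm25 overexpression. No gene of at least 5 CPM lay between 2% and 5%, so the gap inside the 8 was wider, as a ratio, than the gap at the limit. Of the 9290 genes, 99 were at 50% of control or less in CFIm25 overexpression. At the 10% limit the other groups had 0 genes in CFIm25 knockdown, 0 in CFIm68 knockdown and 10 in CFIm68 overexpression, and none of the 8 genes was among those 10.

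**Figure D2:**
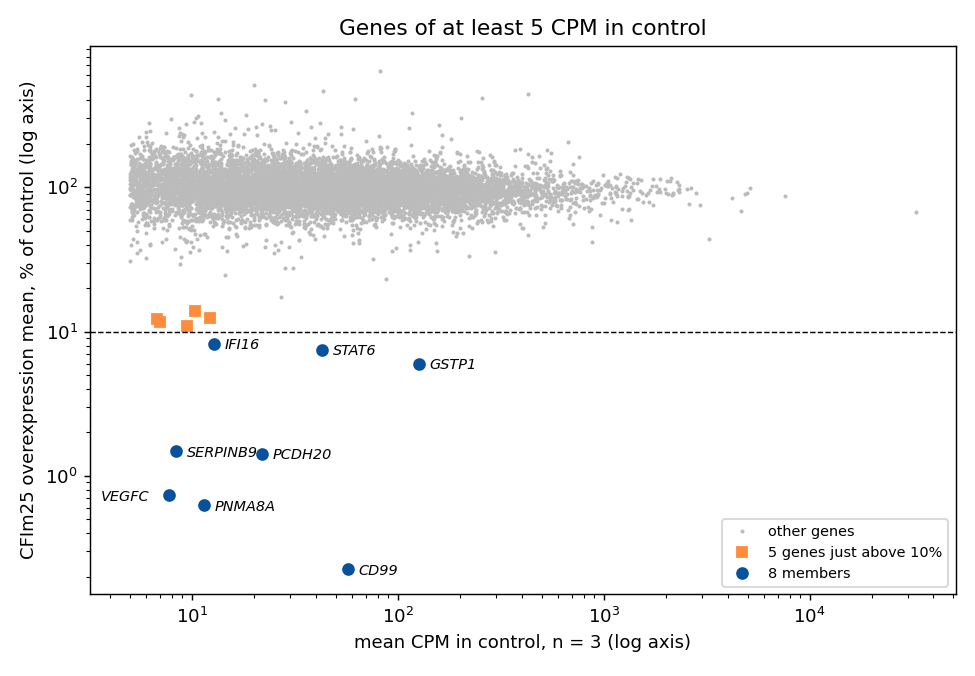
Mean CPM in control against the CFIm25 overexpression mean as percent of control, both on log axes, for genes of at least 5 CPM in control. The 8 members lie below the dashed line at 10%, and CD99, PNMA8A, VEGFC, PCDH20 and SERPINB9 lie below 2%.

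Per kilobase of exon (GENCODE 29 exon union), control levels ran from 66.1 ± 4.29 CPM per kb for GSTP1, through 11.6 ± 0.962 for CD99, 5.89 ± 0.308 for STAT6 and 4.56 ± 0.375 for PCDH20, to 3.22 ± 0.244 for VEGFC, 3.09 ± 0.469 for PNMA8A, 2.42 ± 0.194 for IFI16 and 2.03 ± 0.32 for SERPINB9. Residual share did not follow this order: CD99, second in level, was in the group of 5 near 0, and GSTP1, first in level, was in the group of 3 with a residue. PCDH20 shares 95.8% of its exonic bases with AL592490.1 on the same strand, so its reads could be split or left uncounted. AL592490.1 had 0 or 1 count in every library. This does not show that PCDH20 lost no reads, since what counted them is not stated. The PCDH20 level per kb may thus be too low. STAT6 shares 69 exonic bases with NAB2 and 59 with LRP1, both on the other strand, and reads there could be split between them if counting did not use strand.

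Most of these genes were also lower than control in the knockdown libraries of either subunit. In CFIm25 knockdown 7 of 8 fell, 0 rose and CD99 did not pass the test, where 23.2% of the 12080 tested genes, all 8 among them, fell and 24.4% rose (edgeR quasi-likelihood test, Benjamini-Hochberg adjusted p under 0.05). In CFIm68 knockdown 8 of 8 fell, where 28.1% of tested genes fell and 28.3% rose. The median log2 change of the 8 was -1.05 and -1.11, against 0.0047 and 7.9e-04 over all tested genes. In absolute log2 change the medians were 1.05 and 1.11 for the 8, against 0.232 and 0.254 over all tested genes. The control libraries entered the choice of these genes, and both comparisons use them, so the results are not independent of each other or of the choice.

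PCDH20 fell the most. Its control libraries were at 23.9, 20.8 and 20.7 CPM, the CFIm25 knockdown libraries at 4.81 and 4.73 and the CFIm68 knockdown libraries at 4.602, 4.16 and 3.68. No library of either knockdown came near the controls, and the log2 changes were -2.19 ± 0.12 (edgeR adjusted p = 3.4e-14) and -2.39 ± 0.11 (1.2e-16). GSTP1 was at 123, 119.9 and 136 CPM in control, at 64.2 and 63.6 in CFIm25 knockdown and at 65.5, 65.1 and 65.2 in CFIm68 knockdown. The glutathione transferase thus lost about as much in each knockdown, 1.98-fold (log2 change -0.98 ± 0.06, edgeR adjusted p = 9.2e-13) and 1.93-fold (-0.95 ± 0.05, 2.4e-14), with SDs of 0.449 and 0.18 CPM within the knockdown groups and 8.2 CPM in control.

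STAT6, at 41.4, 42.0 and 45.5 CPM in control, was at 19.0 and 20.4 in CFIm25 knockdown and at 17.4, 19.1 and 19.9 in CFIm68 knockdown. That is 2.17-fold and 2.29-fold lower (edgeR adjusted p = 1.7e-11 and 7.4e-14), with no overlap between either knockdown and control. How many of all tested genes lacked such overlap was not counted, here or where overlap is given below. The growth factor gene VEGFC fell by log2 changes of -1.24 ± 0.15 and -1.26 ± 0.13, from 7.32 to 8.45 CPM in control to 2.91 to 3.59 and 3.10 to 3.36. SERPINB9 fell by -1.48 ± 0.16 and -1.27 ± 0.14, and PNMA8A by -0.90 ± 0.13 and -1.02 ± 0.11. For the DNA sensor IFI16 the changes were -0.55 ± 0.10 and -0.91 ± 0.10, the smallest of the 7 that fell in CFIm25 knockdown.

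CD99 had the smallest change of the 8 in the knockdowns. It was at 53.9 and 51.4 CPM in CFIm25 knockdown, inside the control range of 51.9 to 61.0 or just below it, with a log2 change of -0.12 ± 0.07 (edgeR adjusted p = 0.18). In CFIm68 knockdown it was at 51.3, 51.5 and 47.0 CPM, and its change of -0.20 ± 0.07 passed (adjusted p = 0.014). That call was lost without control replicate 2 (adjusted p = 0.055), control replicate 3 (0.090) or CFIm68 knockdown replicate 3 (0.080).

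Set against each other, the knockdowns differed in 1 of 8 genes. IFI16 was lower in CFIm68 knockdown, at 6.41, 7.16 and 6.96 CPM against 9.17 and 8.45 in CFIm25 knockdown (log2 change -0.36 ± 0.11, edgeR adjusted p = 0.014). The groups did not overlap, but the call was lost without CFIm25 knockdown replicate 1 (adjusted p = 0.14) or CFIm68 knockdown replicate 1 (0.072). Over all tested genes 13.2% were lower and 11.1% higher in CFIm68 knockdown. None of these libraries entered the choice of the 8 genes. The other 7 had log2 differences between -0.19 ± 0.14 (PCDH20) and 0.22 ± 0.17 (SERPINB9) that did not pass, which does not show that they were equal.

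Overexpression of CFIm68 gave another pattern. Against control 4 of 8 rose, 2 fell and 2 did not pass, where 14.5% of tested genes rose and 15.4% fell. PNMA8A, the Ma antigen family gene, rose from 12.6, 12.2 and 9.43 CPM to 38.9, 39.1 and 34.9, 3.30-fold (log2 change 1.72 ± 0.10, edgeR adjusted p = 3.1e-14). All 3 libraries were above every other library of the series for this gene. IFI16 rose 1.86-fold, to 25.1, 23.2 and 23.2 CPM, SERPINB9 1.84-fold, to 15.4, 16.1 and 14.4, and STAT6 1.66-fold, to 66.1, 76.2 and 71.6 (edgeR adjusted p = 9.0e-09, 2.8e-06 and 2.4e-09). None of these libraries overlapped control, a trait that was not counted over all tested genes. These 4 genes had their highest levels of the series in CFIm68 overexpression.

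PCDH20 and CD99 fell in CFIm68 overexpression. PCDH20 was at 7.80, 8.52 and 8.53 CPM, 2.63-fold below control (edgeR adjusted p = 2.7e-11), and CD99 at 42.6, 40.6 and 39.3 CPM, 1.40-fold below (5.7e-06). They are the 2 of the 8 that were called lower than control in both CFIm68 groups. As given above, the CD99 call in CFIm68 knockdown did not hold without some single libraries. VEGFC, at 7.34, 6.85 and 6.96 CPM (log2 change -0.14 ± 0.13, edgeR adjusted p = 0.42), and GSTP1, at 128, 135.0 and 135.4 CPM (0.07 ± 0.05, 0.33), did not pass, and their libraries overlapped the controls.

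Between CFIm68 overexpression and CFIm68 knockdown, groups that took no part in the choice, 7 of 8 genes were higher with overexpression and CD99 was lower, where 33.5% of tested genes were higher and 33.7% lower. PNMA8A was 6.70-fold higher (log2 change 2.74 ± 0.10, edgeR adjusted p = 3.9e-19), SERPINB9 4.42-fold (2.14 ± 0.13, 2.1e-14), STAT6 3.80-fold (1.93 ± 0.07, 4.3e-19) and IFI16 3.49-fold (1.80 ± 0.09, 4.5e-16). VEGFC, GSTP1 and PCDH20 were 2.16-fold, 2.04-fold and 1.99-fold higher. CD99 was 1.22-fold lower (log2 change -0.29 ± 0.07, edgeR adjusted p = 5.5e-04). The median of the 8 was 1.46, against 0.0023 over all tested genes. In absolute log2 change the medians were 1.46 and 0.348.

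**Figure D3:**
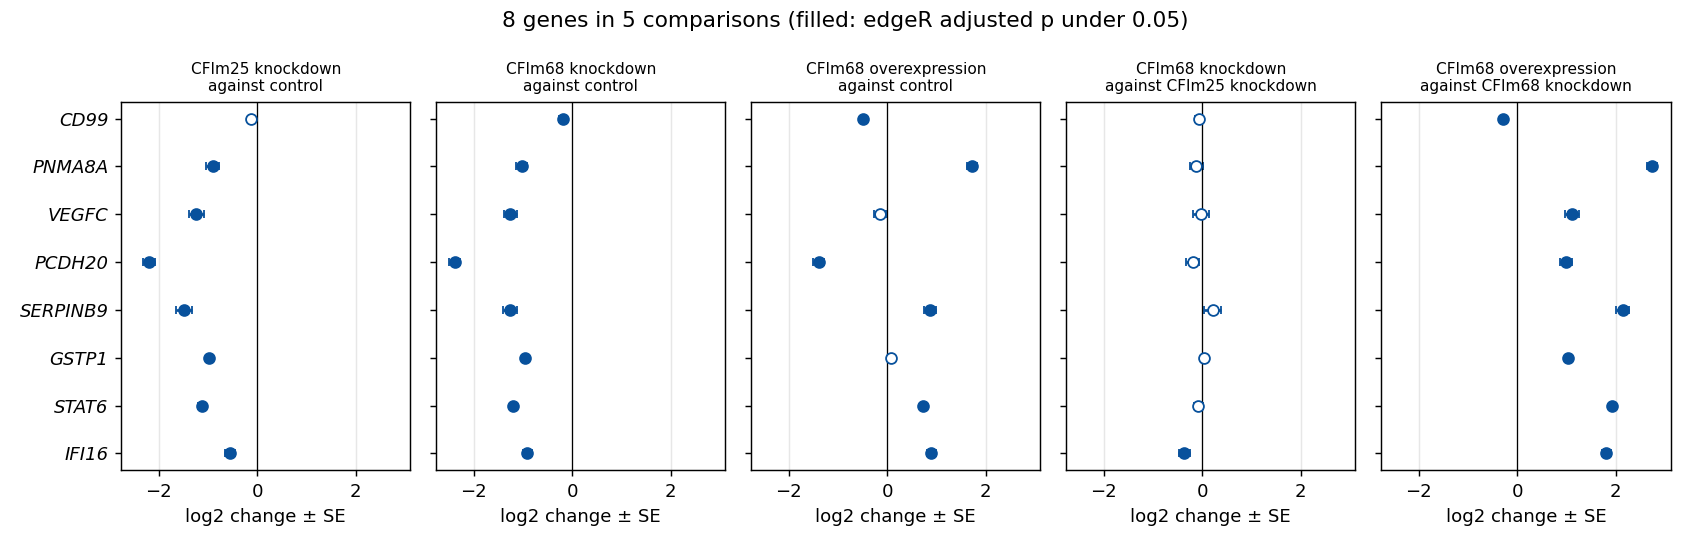
Log2 change ± SE of each gene in 5 comparisons, with filled points for edgeR adjusted p under 0.05. In the knockdowns 7 and 8 genes lie below 0 with filled points, in CFIm68 overexpression against its knockdown 7 lie above, and CD99 stays within 0.5 of 0 throughout.

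The order of the 5 groups differed by gene. In CD99 it ran control, CFIm25 knockdown, CFIm68 knockdown, CFIm68 overexpression, CFIm25 overexpression, and the first 3 overlapped their neighbours in that order. In PNMA8A, SERPINB9, STAT6 and IFI16 it ran CFIm68 overexpression, control, the knockdowns, CFIm25 overexpression. Of these, the knockdowns overlapped each other in PNMA8A, SERPINB9 and STAT6, and not in IFI16, and no other neighbours overlapped. GSTP1 had the same order, with CFIm68 overexpression and control overlapping and the knockdowns at 65.3 ± 0.18 (CFIm68) and 63.9 ± 0.449 CPM (CFIm25). In VEGFC control came first, overlapping CFIm68 overexpression, and the knockdowns overlapped. In PCDH20 control came first and no neighbours overlapped. The knockdowns did not overlap in GSTP1 or PCDH20, yet neither gene passed the direct test between them (edgeR adjusted p = 0.77 and 0.34). CFIm25 overexpression was last in all 8, as the choice requires only in relation to control.

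No tested gene beside the 8 on their chromosomes met the 10% limit. Of the 32 nearest tested genes, 2 on each side, 14 were lower in CFIm25 overexpression, 8 higher and 10 did not pass, where 29.1% of tested genes were lower and 27.7% higher. Their median log2 change was -0.02, and 0 of 32 were at 10% of control or less. GSTP1 (chromosome 11, 67583595 to 67586656, hg38) has NDUFV1 19.0 kb away at 14.3 ± 0.426 CPM in control and 14.9 ± 1.18 in CFIm25 overexpression. Beyond NDUFV1, NUDT8 rose (log2 change 0.45 ± 0.16). On the other side of GSTP1, CDK2AP2 and PITPNM1 fell (-0.35 ± 0.10 and -0.85 ± 0.08). SERPINB9 (chromosome 6, 2887266 to 2903280) lies between its relatives SERPINB6 and SERPINB1, 44.9 and 45.3 kb away. SERPINB1 was at 67.0 ± 1.79 and 68.8 ± 2.16 CPM and did not pass, and SERPINB6 fell from 128 ± 5.93 to 94.2 ± 6.21 CPM (log2 change -0.44 ± 0.06, by edgeR with adjusted p = 1.4e-07). Further out, WRNIP1 and NQO2 fell (-0.36 ± 0.05 and -0.59 ± 0.08).

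STAT6 (chromosome 12, 57095408 to 57132139) overlaps NAB2, which was at 11.9 ± 0.977 and 10.6 ± 0.933 CPM and did not pass, and LRP1, which fell from 7.41 ± 2.34 to 5.12 ± 0.817 CPM (-0.52 ± 0.18, edgeR adjusted p = 0.014). NEMP1, 7.34 kb away, rose from 93.8 ± 8.08 to 104.1 ± 6.13 CPM (0.15 ± 0.06, adjusted p = 0.029). CD99 (chromosome X, 2691133 to 2741309) has the pseudoautosomal genes DHRSX and AKAP17A on 1 side, 188 and 1089 kb away, which fell by log2 changes of -0.66 ± 0.06 and -0.93 ± 0.07 (edgeR adjusted p = 2.8e-10 and 3.5e-12). Both stayed above 50% of their control means. On the other side of CD99 the nearest tested genes are far, at 4308 kb (PUDP) and 4478 kb (STS). PUDP did not pass (0.11 ± 0.08) and STS rose (0.24 ± 0.09). The steepest neighbour, VSIG8 beside IFI16 (-2.38 ± 0.94, edgeR adjusted p = 0.033), was at 0.204 ± 0.0328 CPM in control, too few counts for a firm value. PNMA8A spans 46466491 to 46471563 on chromosome 19, VEGFC 176683538 to 176792727 on chromosome 4, PCDH20 61409685 to 61415522 on chromosome 13 and IFI16 158999968 to 159055155 on chromosome 1. Beside PNMA8A, PPP5C (-0.21 ± 0.05), CCDC61 (-0.47 ± 0.16) and CALM3 (-0.63 ± 0.05) fell and DACT3 did not pass. The nearest tested neighbours of IFI16 (VSIG8), PCDH20 (TDRD3) and VEGFC (SPCS3) are 799, 836 and 351 kb away, so they say little about the ground beside those genes.

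**Figure D4:**
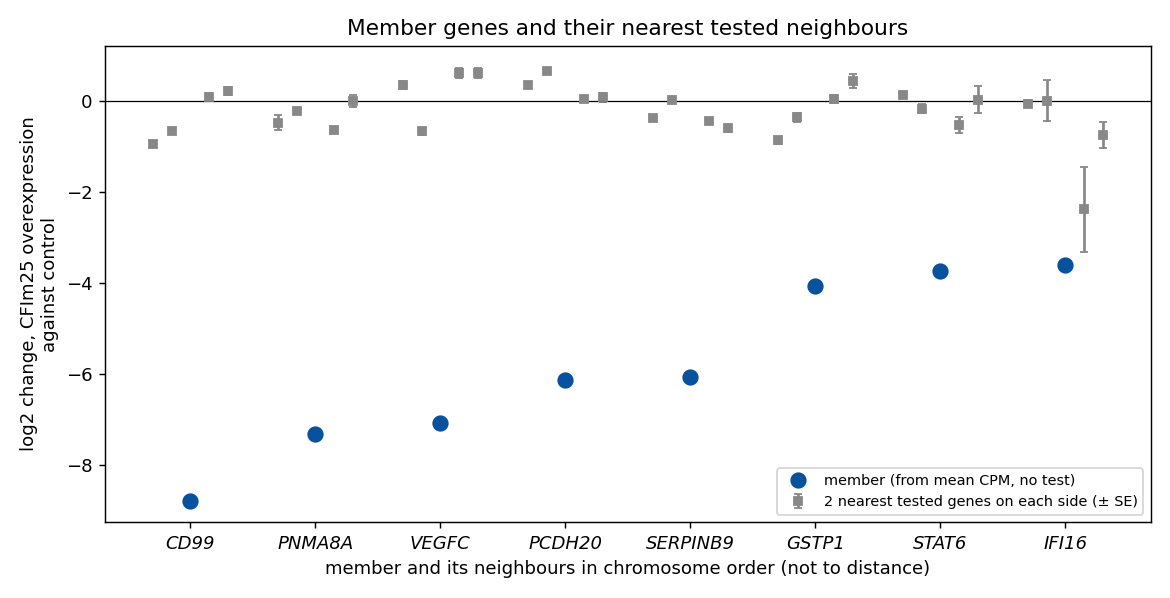
Log2 change between CFIm25 overexpression and control for each of the 8 genes (from mean CPM) and for the 2 nearest tested genes on each side, in chromosome order and not to distance. The members lie lowest, from CD99 at 0.225% of control to IFI16 at 8.23%, and 31 of 32 neighbours lie within 1 of 0, with VSIG8 at -2.38.

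Relatives and partners of the 8 genes were followed in the same comparison, from lists drawn up by family and pathway, whose median log2 changes are read beside -0.0019 over all tested genes and whose counts are read beside 27.7% of tested genes higher and 29.1% lower. Of 6 tested non-clustered protocadherins 4 rose and 2 fell in CFIm25 overexpression, with a median of 0.48. PCDH10 fell 16.9-fold, from 4.44 ± 0.175 to 0.257 ± 0.0255 CPM (log2 change -4.08 ± 0.26, by edgeR with adjusted p = 1.5e-13), and its control level, just under 5 CPM, kept it out of the 8. PCDH19 rose 4.64-fold, from 43.4 ± 2.11 to 201 ± 15.6 CPM (2.21 ± 0.06, adjusted p = 7.3e-22), and fell 8.93-fold in CFIm68 overexpression, to 4.87 CPM (-3.16 ± 0.09, 6.9e-21). In the knockdowns PCDH19 rose 2.77-fold and 2.57-fold, so this protocadherin moved against PCDH20 in 3 of 4 comparisons with control.

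Among 7 tested VEGF ligands, receptors and processing factors 0 rose and 4 fell in CFIm25 overexpression (27.7% and 29.1% over all tested genes), with a median of -0.25. PGF, a placental ligand of the family, fell from 30.3 ± 2.59 to 16.0 ± 1.30 CPM (log2 change -0.92 ± 0.09, by edgeR with adjusted p = 9.1e-10). FLT4, the receptor for VEGFC, fell from 2.55 ± 0.353 to 1.48 ± 0.139 CPM (-0.78 ± 0.20, adjusted p = 0.0019), and CCBE1, which aids VEGFC processing, by -0.25 ± 0.10. In CFIm68 overexpression 4 of the 7 rose and 0 fell, where 14.5% of tested genes rose and 15.4% fell, and the median was 0.29 against 0.0088. CCBE1 rose 2.33-fold there.

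Of 11 tested glutathione transferases 2 rose and 3 fell in CFIm25 overexpression (median 0.0063), GSTM4 the most (-1.20 ± 0.20, edgeR adjusted p = 8.8e-06), while GSTO2 rose by 0.75 ± 0.10. GSTO2 rose in both knockdowns, 2.42-fold and 2.34-fold, where GSTP1 fell. Of 11 tested STAT and interleukin 4 pathway genes 2 rose and 3 fell (median -0.06). STAT2 fell (-0.34 ± 0.06), STAT5B rose by 0.39 ± 0.07, and JAK3 rose 2.34-fold from 0.446 ± 0.12 CPM. The receptor gene IL4R was at 0.352 ± 0.0859 CPM in control. Of 5 tested cytosolic DNA sensing genes IFI35 rose (0.49) and IRF3 fell (-0.36), with a median of -0.12 and 3 not past the test. STING1, at 20.9 ± 0.713 CPM in control and 20.8 ± 0.425 in CFIm25 overexpression, did not pass.

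Of the other families, CD99L2 rose from 6.67 ± 0.902 to 12.3 ± 0.84 CPM (log2 change 0.89 ± 0.11, by edgeR with adjusted p = 1.6e-07). In the PNMA family ZCCHC12 (0.80 ± 0.09) and MOAP1 (0.47 ± 0.05) rose and PNMA2 fell (-0.28 ± 0.05). Of 3 tested clade B serpins SERPINB8 rose (0.97 ± 0.18), SERPINB6 fell as above and SERPINB1 did not pass. None of the tested members of these lists other than PCDH10 was below 10% of control in CFIm25 overexpression. Genes for DNA methylation and Polycomb silencing had 4 of 9 tested members higher and 2 lower, with a median of 0.14. EZH2 (0.42 ± 0.05) and SUZ12 (0.26 ± 0.05) rose, and the methyltransferase gene DNMT3B fell (-0.29 ± 0.06). DNMT1 and DNMT3A were listed at 0 in every library, as was VEGFA, for which no reason is given in the sources used here, so a 0 throughout the table is not read as absence.

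HEK 293 markers were present in both groups. The neurofilament gene NEFL was at 276.5 ± 12.2 CPM in control and 239 ± 16.1 in CFIm25 overexpression, and gave most of the sum of the 6 listed genes, 304 to 335 and 259 to 287 CPM. Of the 5 tested, PAX2 (log2 change 0.97 ± 0.19) and INA (0.38 ± 0.10) rose, NEFL (-0.21 ± 0.06) and LIN28B (-0.56 ± 0.09) fell, and NEFM did not pass. Of the markers of other cells, keratinocyte and HeLa-type genes (7 of 8 in the table, 3 tested) summed to 66.3 to 78.5 CPM in control, 84.5 to 96.7 in CFIm25 overexpression, 87.2 to 87.3 and 90.2 to 94.3 in CFIm25 and CFIm68 knockdown and 79.3 to 91.3 in CFIm68 overexpression. All 3 tested rose in CFIm25 overexpression, KRT17 2.89-fold. Mesenchymal genes (7 of 7, 3 tested) summed to 50.5 to 54.8 CPM in control, 46.6 to 53.7 in CFIm25 overexpression, 52.8 to 57.6 and 65.6 to 68.2 in CFIm25 and CFIm68 knockdown, and 24.95 to 28.4 in CFIm68 overexpression, with COL1A2, FAP and DCN listed at 0 throughout. LUM fell from 2.61 ± 0.594 to 0.109 ± 0.102 CPM in CFIm25 overexpression (log2 change -4.59 ± 0.41, by edgeR with adjusted p = 2.2e-10). Blood cell genes (7 of 7, 2 tested) summed to 1.08 to 1.33 CPM in control, 1.53 to 2.61 in CFIm25 overexpression, 1.20 to 1.498 and 1.54 to 1.81 in CFIm25 and CFIm68 knockdown and 1.78 to 2.34 in CFIm68 overexpression. PTPRC and HBB were listed at 0 throughout, and CD34 rose 3.44-fold in CFIm25 overexpression, from 0.370 ± 0.0261 to 1.29 ± 0.331 CPM (edgeR adjusted p = 2.4e-04). The part of any such difference in the levels of the 8 genes was not tested.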

How the data were processed

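The deposited table gives raw counts per gene for 14 TruSeq Stranded mRNA libraries; the authors trimmed with cutadapt 1.16 and aligned with STAR 2.7.1a to hg38, going by the tools and build in the submitters' processing notes. What counted the reads, with which annotation and strand setting, is not stated there. Of 18006 identifiers, 17959 matched a symbol.

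The deposited counts were tested in R 4.3.3 with edgeR 4.0.16. filterByExpr (count 10, total 15) left 12080 genes. After TMM scaling (factors 0.973 to 1.05), quasi-likelihood fits used all 14 libraries with a mean per group, and Benjamini-Hochberg adjustment ran over every tested gene at 0.05. CPM uses TMM-scaled totals, and standard errors were derived from the fold change and the F statistic. The 8 genes, the family lists and the comparisons were chosen with earlier results of these data known. Named genes follow this rule: the 8 members, list genes past the threshold with an absolute log2 change of at least 1 or otherwise up to 3 per list by adjusted p, the 2 nearest tested genes on each side, the 5 genes just above the limit and the 5 most alike. IL4R and STING1 were named after their values were seen, and not every gene that the rule allows is named; 1 list gene is not reported here.

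Positions, exons and 3' UTRs come from GENCODE 29 and promoters from RefSeq. Tested on simulated data, the fit recovered 82% to 89% of 1.5-fold and 95% to 98% of 2-fold changes over the 6 comparisons. The changes were put only into genes above a minimum mean count, and counts were drawn with the spread that the fit itself estimated. Recovery for genes of few counts was thus not measured. The alternatives tried were DESeq2 size factors, no low-count filter, DESeq2 1.42.0 as the test, a filter of 1 CPM in 3 libraries, a block for replicate number, limma-voom (limma 3.58.1), only the compared groups, and each library left out. Figures used Python 3.11.15 with matplotlib 3.10.9.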

Additional observations from a re-analysis of the deposited data

Results flagged for a closer look

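For 1 of the 8 genes the effects of the 2 knockdowns differed by a direct test: IFI16 had a log2 difference of -0.36 ± 0.11 in CFIm68 knockdown against CFIm25 knockdown (edgeR quasi-likelihood test, adjusted p = 0.014). All 3 CFIm68 knockdown libraries were below both CFIm25 knockdown libraries. The difference was no longer called without CFIm25 knockdown replicate 1 or without CFIm68 knockdown replicate 1. Over all tested genes 13.2% were lower and 11.1% higher in this comparison, so 1 of 8 does not set these genes apart.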

How the results depend on the processing

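All 8 genes stayed at 10% of control or less in CFIm25 overexpression with raw library sizes, median-ratio size factors, medians in place of means and each control or CFIm25 overexpression library left out. Among the alternative values of the 8 genes in 5 comparisons, 497 kept direction and call, 5 lost the call (CD99 in CFIm68 knockdown and IFI16 between knockdowns, as given with those results) and 2 reversed. Those 2 were VEGFC between knockdowns, never called, at 0.16 without CFIm25 knockdown replicate 2 and 0.02 without CFIm68 knockdown replicate 1, in place of -0.02, with a range of -0.14 to 0.16 over the libraries left out. Between the knockdowns, leaving out 1 library gave 1465 to 2384 called genes in place of 2929, and 0 to 1 called members in place of 1. The lowest value, 1465, was without CFIm25 knockdown replicate 1. A fit of only the 2 compared knockdown groups gave more, 4337 called genes. With the replicate block the called genes numbered 5890 in CFIm25 knockdown, 7103 in CFIm68 knockdown, 4064 in CFIm68 overexpression, 3256 between knockdowns, 8317 in CFIm68 overexpression against its knockdown and 7128 in CFIm25 overexpression, and no call of the 8 genes changed. The replicate numbers pair nothing that the labels name, and 3 of 26 same-numbered pairs of libraries had deviations that correlated above 0.1 (median r = 0.0204). The CPM of PNMA8A, VEGFC and CD99 in CFIm25 overexpression rests on 4, 3 and 7 counts in all, so their order is not resolved at this depth.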

Other observations

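The complex's UGUA motif was counted, as TGTA, in the longest annotated 3' UTR of each gene (GENCODE 29, UTRs of at least 100 bases), a description chosen after the values were seen. The count covers 7 of the 8 genes, since the GSTP1 3' UTR is shorter than that. Density was 9.63 per kb in PCDH20 (15 motifs in 1558 bases), 7.73 in VEGFC, 7.59 in SERPINB9 (22 in 2897 bases), 6.79 in PNMA8A, 6.01 in STAT6, 3.94 in IFI16 and 3.41 in CD99. The median over 16209 genes was 4.81 per kb. PCDH20 was denser than 91% of genes, and CD99 was denser than 33.6%. Whether motif density goes with the changes of these genes was not tested. Polyadenylation site use is not held by counts per gene, and a motif is not a site in use.

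Across the 14 libraries, the genes whose log2 CPM was most like the mean profile of the 8 were RBP7 (r = 0.985), KDM5C (0.984), DBNDD1 (0.977), NDUFB9 (0.975) and RBX1 (0.974). The libraries share groups, so these values follow group differences. The measure ignores size: in CFIm25 overexpression RBP7, a retinol-binding protein gene, was at 27.7% of control, and KDM5C, a histone demethylase gene, at 67.5%.

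Among the 5 genes just above the limit, CXXC4 and TMEM200B were, like STAT6, above control in CFIm68 overexpression and below it in both knockdowns, with means of 16.2 ± 2.25 and 22.0 ± 1.37 CPM in CFIm68 overexpression, 9.52 ± 0.534 and 12.3 ± 0.994 in control, 3.52 ± 0.665 and 5.23 ± 0.269 in CFIm25 knockdown and 2.65 ± 0.397 and 5.49 ± 0.373 in CFIm68 knockdown. SDR42E1 and CYP27A1 did not, at 1.14 ± 0.187 and 1.55 ± 0.797 CPM in CFIm68 overexpression, below all but CFIm25 overexpression. RGL3 had neither pattern, at 6.97 ± 1.21 CPM in control, 5.51 ± 0.725 in CFIm25 knockdown, 5.96 ± 0.599 in CFIm68 knockdown and 5.83 ± 1.27 in CFIm68 overexpression.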
